A study of Mus musculus with 72 samples.

Results

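The nuclear genes of the mitochondrial respiratory chain and of ATP synthase were followed through the day in mouse livers labelled as knockouts (KO) of SIRT6 or SIRT1 and in their wild types (WT). They were chosen by symbol, as every gene whose single annotated symbol begins with Nduf, Uqcr, Atp5 or Cox4 to Cox8 or is Sdha, Sdhb, Sdhc or Sdhd. This gave 89 of the 22180 genes that the array names with 1 symbol: 32 subunits of complex I, 8 assembly factors of complex I (Ndufaf), 4 subunits of complex II, 7 of complex III, 19 of complex IV (Ndufa4 and its relative Ndufa4l2 among them), 17 of ATP synthase and 2 pseudogenes. Each gene was read by its probe set of highest mean. A filter on low values, which dropped the 40% of genes with the smallest mean across the 72 arrays, kept 81 of the 89. It removed Cox7b2, Cox8b, Cox8c and Ndufa4l2 of complex IV, Atp5j2, Ndufaf5 (5.998 against the limit of 6.005), Atp5c1-ps and Uqcrh-ps1.

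The respiratory chain sits in the inner mitochondrial membrane. Complexes I and II pass electrons from NADH and succinate to coenzyme Q, complex III passes them on to cytochrome c, and complex IV hands them to oxygen. Complexes I, III and IV pump protons as they work, and ATP synthase lets the protons flow back through its membrane ring while its head makes ATP. Hepatocytes are rich in mitochondria and draw on this chain for gluconeogenesis, urea synthesis and fatty acid oxidation, processes that follow the daily cycle of feeding. SIRT6 and SIRT1 are NAD-dependent deacylases. SIRT1 is known in liver as a deacetylase of PGC-1alpha, the coactivator encoded by Ppargc1a that raises transcription of respiratory genes, and SIRT6 as a chromatin-bound deacylase.

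The design sets each sirtuin's loss against its own controls around the clock. Livers were taken every 4 h under a cycle of 12 h light and 12 h dark, at ZT0, 4, 8, 12, 16 and 20, where ZT (zeitgeber time) counts the hours since the light came on. In the SIRT6 cohort, of the strain label 129 mixed, livers labelled as liver-specific SIRT6 KO were set against WT livers; in the SIRT1 cohort, C57BL/6 mice, livers labelled as liver-specific SIRT1 KO were set against WT livers. With 3 arrays at a time, a genotype had 18 in each cohort, and there were 24 groups in all. The sources used here give neither the promoter that drove the Cre, nor the age and sex of the mice, nor whether WT mice were littermates. Nothing in the labels states that replicates were different mice, and p-values thus reflect the variation among these samples alone, which could be technical.

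All values are on the scale log2(intensity + 16), where intensity is the probe set value the authors deposited; changes of dim genes are understated on it. Array medians of intensity ran from 44.5 to 52.9 in SIRT6 KO-labelled arrays and from 43.9 to 52.7 in their WT, and from 44.4 to 52.2 in SIRT1 KO-labelled arrays and from 47.6 to 53.8 in their WT. The number of arrays limits the precision. As a check of the labels, the Sirt6 probe set read 7.89 ± 0.10 (SD, n = 18) in SIRT6 KO-labelled and 7.32 ± 0.18 (n = 18) in WT arrays, which is higher and not lower, and the Sirt1 probe set read 8.74 ± 0.11 in SIRT1 KO-labelled and 8.74 ± 0.18 in WT arrays (n = 18 each). Whether the probes fall inside the deleted exons is unknown here, so the loss of neither gene is shown and every direction rests on the labels. An array stood apart in the SIRT6 cohort: WT ZT12 replicate 1 had the lowest mean correlation with its own group (0.953), the highest upper quartile of the WT arrays (7.68) and the lowest mean of the respiratory genes among them. All 7 hepatocyte markers were measured above the filter, with summed intensities from 43706 to 53232 in SIRT6 KO-labelled arrays, 45400 to 54040 in their WT, 50822 to 55847 in SIRT1 KO-labelled arrays and 49469 to 56308 in their WT.

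Promoter sequence was at hand for 72 of the 89 genes in the RefSeq table of build GRCm38.p6, which holds 250 bases before and 50 after each gene's start. Nuclear respiratory factor 1 (NRF1), the ETS protein GABP (also called NRF-2) and YY1 are the classic regulators of respiratory gene promoters. Searched on both strands, with a promoter counted for each motif it held, the NRF1 core TGCGCA was present in 17 of the 72 promoters (23.6%) and in 8.06% of all 27025 promoters. The ETS motif CCGGAAG was present in 18 (25.0%, against 9.12% of all), the YY1 motif ATGGCGG in 10 (13.9%, against 4.19%) and the E-box CACGTG, the site that the clock proteins CLOCK and BMAL1 are known to bind, in 6 (8.33%, against 7.24%). The E-box was added to the search after the expression values were known. The promoters of 3 genes that the results turn on are shown: Ndufaf4, the member with the widest fitted rhythm in all 4 sets, and Cox6b2 with its ubiquitous counterpart Cox6b1, since Cox6b2 had the largest difference between genotypes. They lie at chr4:24897833-24898082 on the plus strand, at chr7:4753095-4753344 on the minus strand and at chr7:30626115-30626364 on the minus strand, and each line holds the 250 bases before the gene's start, with motif matches in capitals.
Ndufaf4: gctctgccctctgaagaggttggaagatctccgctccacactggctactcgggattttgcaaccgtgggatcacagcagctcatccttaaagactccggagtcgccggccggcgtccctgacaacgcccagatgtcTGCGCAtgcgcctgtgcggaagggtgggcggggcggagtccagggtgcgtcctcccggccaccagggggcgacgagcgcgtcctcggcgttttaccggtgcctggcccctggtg
Cox6b2: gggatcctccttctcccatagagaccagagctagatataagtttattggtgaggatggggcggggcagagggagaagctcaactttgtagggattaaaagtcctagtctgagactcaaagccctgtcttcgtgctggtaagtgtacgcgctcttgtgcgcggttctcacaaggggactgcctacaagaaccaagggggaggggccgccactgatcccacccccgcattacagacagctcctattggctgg
Cox6b1: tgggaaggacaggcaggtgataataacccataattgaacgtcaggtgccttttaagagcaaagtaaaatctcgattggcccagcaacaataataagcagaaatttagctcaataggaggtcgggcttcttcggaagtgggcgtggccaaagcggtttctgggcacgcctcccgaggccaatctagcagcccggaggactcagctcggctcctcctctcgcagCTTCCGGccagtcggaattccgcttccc
The capitals mark an NRF1 core in Ndufaf4 and an ETS motif, read on the opposite strand, in Cox6b1. The Cox6b2 stretch held none of the 4 motifs. A match describes letters and is not a binding site, and its absence here says only that these letters are not in this window.

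The largest difference between genotypes was in Cox6b2, which encodes the isoform of complex IV subunit 6b known from testis. In livers labelled SIRT6 KO its lowest, median and highest arrays read 8.43, 9.04 and 9.44, against 7.43, 8.03 and 8.27 in WT livers. All 18 KO-labelled arrays lay above all 18 WT arrays, a separation, in either direction, that 11 of the 13308 tested genes had (0.0827%). Its mean was 9.04 ± 0.28 in KO-labelled and 7.97 ± 0.23 in WT livers (SD, n = 18 each), a log2 difference of 1.07 ± 0.08 (SE) or 2.09-fold, averaged over the 6 times (limma adjusted p = 1.2e-09).

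The difference in Cox6b2 was positive at all 6 times. From ZT0 through ZT20 its means were 8.96, 8.997, 8.87, 8.93, 9.26 and 9.20 in KO-labelled livers and 8.05, 7.96, 8.05, 8.10, 7.88 and 7.79 in WT livers. At ZT16 the 3 KO-labelled arrays read 8.91, 9.41 and 9.44, against 7.77, 7.86 and 8.00 in WT. At ZT20 they read 9.10, 9.23 and 9.28, against 7.43, 7.66 and 8.27. At neither time did the groups overlap. Tested at single times with 1 correction over all genes and times, Cox6b2 passed at ZT4 (1.04, limma adjusted p = 0.030), ZT16 (1.38, adjusted p = 0.0035) and ZT20 (1.42, adjusted p = 0.0025). At ZT0, ZT8 and ZT12 the differences were 0.91, 0.82 and 0.84, with adjusted p from 0.073 to 0.134. A 24 h cosine did not pass in either genotype (adjusted p = 0.372 in KO-labelled and 0.540 in WT livers).

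**Figure D1:**
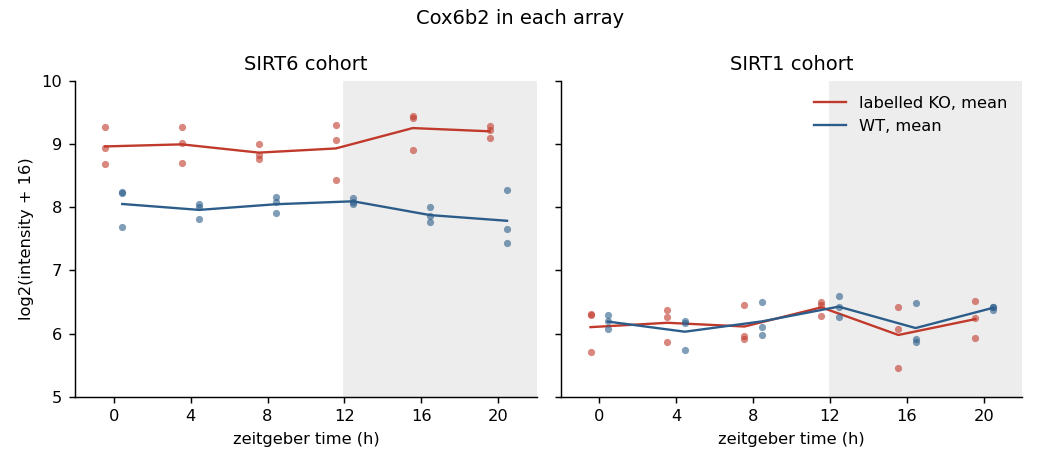
Cox6b2 in each array of the SIRT6 and SIRT1 cohorts, as log2(intensity + 16) against zeitgeber time, with KO-labelled arrays (red, drawn left of each time) and WT arrays (blue, right); points are arrays, lines join the means of 3 arrays and grey marks the dark phase. In the SIRT6 cohort the KO-labelled arrays run from 8.43 to 9.44 and the WT arrays from 7.43 to 8.27, while in the SIRT1 cohort both genotypes lie between 5.45 and 6.60.

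Cox6b2 in the SIRT1 cohort read 6.17 ± 0.30 in KO-labelled and 6.22 ± 0.24 in WT livers (SD, n = 18 each), a difference of -0.05 ± 0.09 (limma adjusted p = 0.774), with arrays from 5.45 to 6.52 and from 5.73 to 6.60. These readings lie near the filter limit of 6.005, and changes of dim genes are understated on this scale. The WT livers of the cohorts were themselves apart: the WT mean of Cox6b2 was 1.75 higher in the SIRT6 cohort than in the SIRT1 cohort. Only 3 of the 81 members had the higher WT mean in the SIRT6 cohort, the next highest by 0.11, and the members' median was -0.21 (all genes -0.08). In the other direction Cox7c, a small subunit of complex IV named for this gap after its values were seen, had WT means of 6.36 and 7.72 in the SIRT6 and SIRT1 cohorts, a gap of -1.36, followed by Ndufaf1 at -0.66. Of 13308 genes, 27 including Cox6b2 had a cohort difference at least as large. The cohorts may have been normalized separately, and strain and cohort cannot be told apart here. The constitutive isoform Cox6b1 read 10.62 ± 0.11 in SIRT6 KO-labelled and 10.62 ± 0.12 in WT livers, and 11.01 ± 0.11 in SIRT1 KO-labelled and 11.04 ± 0.15 in WT livers.

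A single probe set with 1 symbol reads Cox6b2, so no other probe set could be set beside it. Genes next to it were looked up after its values were seen. Of the 4 neighbours on each side in the RefSeq gene order, 7 were measured and 4 tested, and none passed, with differences in the SIRT6 cohort from -0.06 to 0.14. The largest of these was in the histone methyltransferase gene Kmt5c (0.14, limma adjusted p = 0.072).

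Besides Cox6b2, 2 members passed in the SIRT6 cohort, so that 3 of 81 did (3.70%), against 6.61% of all genes tested. Of these 2 were higher (3.39% of all genes were) and 1 lower (3.22%). Atp5l, subunit g of the membrane part of ATP synthase, was lower. Its lowest, median and highest arrays read 8.16, 8.58 and 8.82 in KO-labelled livers and 8.50, 8.83 and 9.01 in WT livers, so that the groups overlapped. The log2 difference was -0.25 ± 0.05 (SE), or 0.839-fold (limma adjusted p = 0.0037), with 16 of 18 KO-labelled arrays below the WT mean of their time. At single times it ranged from -0.47 at ZT4, where KO-labelled and WT livers averaged 8.37 ± 0.09 and 8.84 ± 0.17, to 0.00 at ZT20, where both averaged 8.72, and none of these passed (adjusted p = 0.217 at ZT4). Among 7 tested neighbours of Atp5l, again looked up after the fact, 2 passed, against 6.61% of all genes, and both were lower. They were the ubiquitin ligase gene Ube4a at -0.18 (limma adjusted p = 3.5e-04) and Tmem25 at -0.31 (adjusted p = 0.0063). The 7 ranged from -0.31 to 0.12.

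Ndufc2, an accessory subunit of the membrane arm of complex I, was higher in the livers labelled SIRT6 KO. The arrays ran from 11.22 over a median of 11.47 to 11.58 in KO-labelled livers and from 11.21 over 11.34 to 11.50 in WT livers. The groups overlapped, and 16 of 18 KO-labelled arrays lay above the WT mean of their time. The difference was 0.11 ± 0.03 (SE), or 1.08-fold (limma adjusted p = 0.011), and it was positive at all 6 times. It no longer passed when array medians were centred. Among 6 tested neighbours of Ndufc2, also looked up after the fact, 1 passed, against 6.61% of all genes. It was Alg8, directly beside Ndufc2, and it was higher. Alg8 differed by 0.19 ± 0.05 (limma adjusted p = 0.027), and the 6 ranged from -0.23 to 0.19. In the SIRT1 cohort Atp5l differed by 0.06 ± 0.06 and Ndufc2 by -0.04 ± 0.03, with adjusted p of 0.654 and 0.431.

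**Figure D2:**
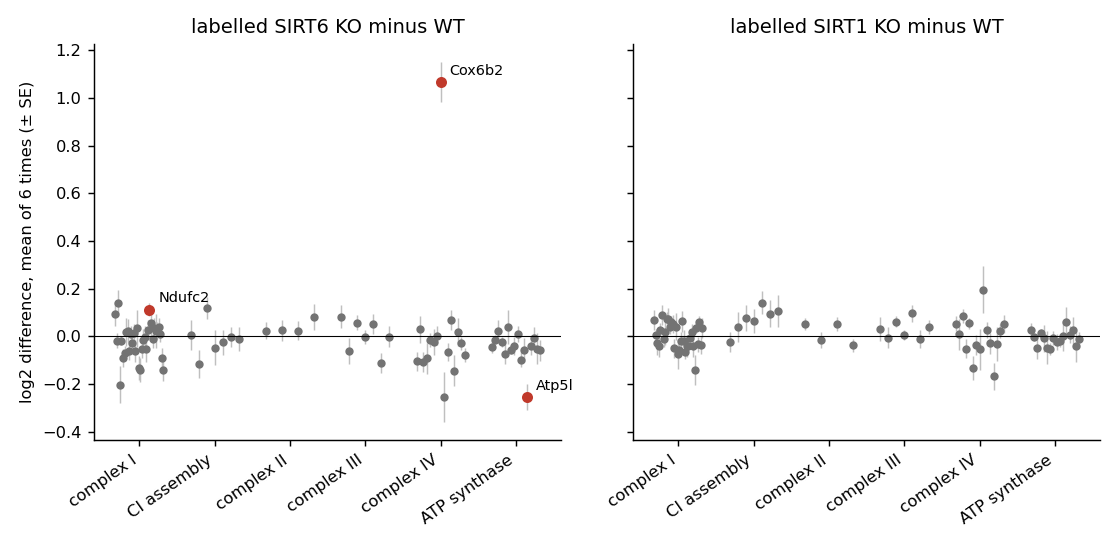
Log2 difference, KO-labelled minus WT averaged over the 6 times, of the 81 members tested, grouped by complex, in the SIRT6 and SIRT1 cohorts; each point is a gene, bars are standard errors, and red marks an adjusted p under 0.05. Cox6b2 stands at 1.07 in the SIRT6 cohort, Ndufc2 at 0.11 and Atp5l at -0.25 are the other points in red, and the SIRT1 cohort has none.

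By complex, differences in the SIRT6 cohort were small and of both signs. The median over the 81 members was -0.01 (all genes 0.00), and 49 had the lower mean in KO-labelled livers (48.3% of all genes did). At an unadjusted p under 0.05 there were 20 members, against 19.3% of all genes. Of 32 complex I subunits 15 had the higher and 17 the lower mean. After Ndufc2 the smallest p among them belonged to Ndufv3, a small accessory subunit of the NADH-binding module, at 8.84 ± 0.15 in KO-labelled and 8.98 ± 0.19 in WT livers (difference -0.14 ± 0.04, adjusted p = 0.0503). Among the 7 complex I assembly factors tested, Ndufaf3 differed by 0.12 and Ndufaf2 by -0.12 (adjusted p = 0.141 and 0.275).

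All 4 subunits of complex II had the higher mean in livers labelled SIRT6 KO, also with 3 other scalings, but by small amounts that did not pass. The flavoprotein Sdha differed by 0.02 and the iron-sulfur subunit Sdhb by 0.03. The membrane anchors Sdhc and Sdhd differed by 0.02 and 0.08. The smallest adjusted p was 0.469, for Sdhd. In complex III 3 were higher and 4 lower, and the 2 with the smallest p were Uqcrh, the acidic hinge protein beside cytochrome c1, at -0.11 ± 0.04 (adjusted p = 0.109) and the core subunit Uqcrc1 at 0.06 ± 0.03 (adjusted p = 0.330).

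In complex IV 10 of the 15 tested subunits had the lower mean in livers labelled SIRT6 KO. After Cox6b2 the smallest p was that of Cox4i1, the constitutive isoform of subunit 4, at 10.60 ± 0.09 in KO-labelled and 10.71 ± 0.15 in WT livers (-0.11 ± 0.04, adjusted p = 0.105). Of 16 ATP synthase genes 13 had the lower mean, with a median of -0.04. Beside Atp5l, the coupling factor gene Atp5j differed by -0.10 ± 0.03 (adjusted p = 0.067). With the other 3 scalings 12 to 15 of these 16 were lower.

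A single array had a large part in these counts. Without WT ZT12 replicate 1, the array named above, 9 members passed in place of 3, of which 2 were higher and 7 lower in KO-labelled livers, while the count over all genes was 1030 of 13308 in place of 880. They were Cox6b2, Ndufc2, Atp5l, Ndufb5, Ndufv3, Atp5j, Cox5a, Ndufa4 and Cox4i1. Without KO-labelled ZT0 replicate 1, or without WT ZT8 replicate 3, 5 passed, beside 853 and 821 of all genes. Cox6b2, Atp5l and Ndufc2 passed without any single array.

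At single times the respiratory genes as a group did not keep a direction in the SIRT6 cohort. The number of members averaging higher in KO-labelled livers was 10, 17, 22, 34, 61 and 54 of 81 from ZT0 through ZT20. The share of all genes with the higher mean at these times was 46.2%, 43.8%, 46.9%, 51.9%, 47.7% and 64.7%. The members' median difference was -0.11 at ZT0 (all genes -0.02) and 0.06 at ZT16 (all genes -0.01). At ZT20 it was 0.03, less than the 0.06 of all genes. It turned to -0.01 after quantile normalization (all genes 0.00) and was 0.07 with centred medians (all genes 0.10). With the upper quartile as a covariate it was 0.09, above the 0.01 of all genes. Of the tests of members at single times 3 passed, all in Cox6b2, against 0.137% of such tests over all genes.

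Averaged per array as deviations from each gene's cohort mean, the 81 genes stood at -0.01 ± 0.08 in KO-labelled and 0.09 ± 0.02 in WT livers at ZT0 (SD, n = 3 each). At ZT8 they stood at -0.12 ± 0.11 and -0.07 ± 0.09. At ZT16 the means were 0.04 ± 0.08 and -0.04 ± 0.08, and at ZT20 0.09 ± 0.00 and 0.03 ± 0.01. At ZT20 the arrays of the genotypes did not overlap, and at the other times they did. At ZT12 the WT arrays ran from -0.18 to 0.10. Within groups, a single component held 41.5% of the variance of the members in the SIRT6 cohort, against 52.6% over all genes, and 28.4% in the SIRT1 cohort, against 18%. The members' mean moved with the upper quartile of the array, both taken as deviations from their group means. Over 36 arrays Pearson's r was -0.741 in the SIRT6 cohort (permutation within groups, two-sided, adjusted over the 2 cohorts, p = 8e-05), with Spearman's rho of -0.75 (adjusted p = 4e-05) and r of -0.708 without the 2 arrays farthest from the median. In the SIRT1 cohort r was 0.575 (permutation p = 0.00394, adjusted likewise), rho 0.515 (p = 0.00943) and r 0.629 without the 2 farthest. The part of this in the group means was not tested. The upper quartile is itself taken over all probe sets of an array. The same relation for the mean over all genes was not tested, so neither r is shown to be particular to the members.

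**Figure D3:**
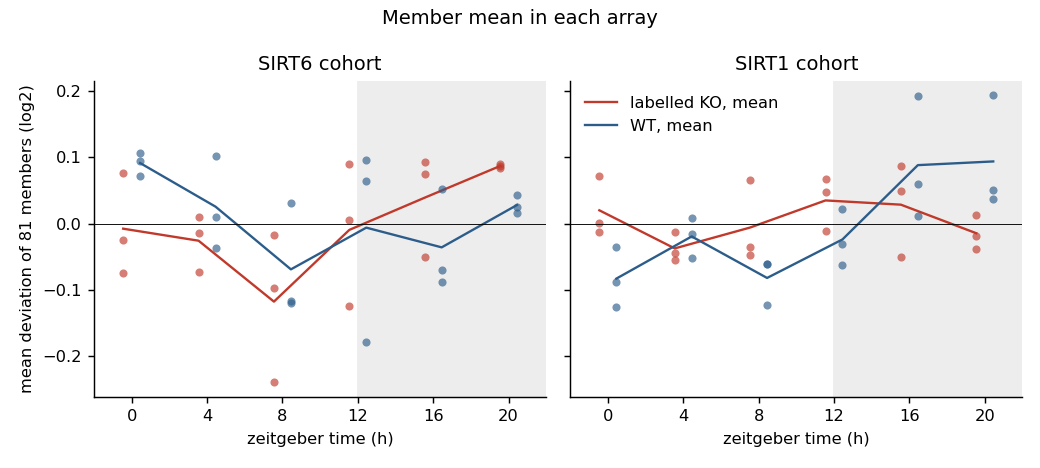
Mean over the 81 tested members of each gene's deviation from its mean in the cohort, per array, on the log2 scale, against zeitgeber time; KO-labelled arrays are red and drawn left, WT arrays blue and right, lines join the means of 3 arrays and grey marks the dark phase; within groups these values moved with the array's upper quartile, as given above. In the SIRT6 cohort the lowest array stands at -0.24 (KO-labelled, ZT8), and in the SIRT1 cohort the WT livers run from a mean of -0.08 at ZT0 and ZT8 to 0.09 at ZT16 and ZT20.

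In livers labelled SIRT1 KO none of the 81 members passed in the daily average, against 2.27% of all genes (1.06% higher and 1.21% lower). At an unadjusted p under 0.05 limma gave 15 members, against 18% of all genes. The median over the members was 0.01 (all genes 0.00), with 43 higher and 38 lower in KO-labelled livers. The smallest p were in complex IV. Cox7b, a small subunit encoded on the X chromosome, read 11.60 ± 0.19 in KO-labelled and 11.77 ± 0.13 in WT livers (SD, n = 18 each), a difference of -0.17 ± 0.06 (adjusted p = 0.099), and its second probe set differed by -0.13. Cox5a, a nuclear subunit close to the catalytic core, read 10.19 ± 0.10 and 10.10 ± 0.12 (0.09 ± 0.03, adjusted p = 0.107).

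The differences of smallest p in the other complexes were small as well. Among the 32 subunits of complex I, Ndufa9 differed by 0.06 and Ndufa6 by 0.07 (adjusted p = 0.166 and 0.200), with 16 of the 32 higher and 16 lower. Of the 7 assembly factors tested 6 averaged higher in KO-labelled livers, led by Ndufaf6, needed for early assembly of complex I, at 0.14 ± 0.05 (adjusted p = 0.123), and Ndufaf7, a methyltransferase of a core subunit, at 0.10 (adjusted p = 0.376). In complex II, Sdha and Sdhc differed by 0.05 each (adjusted p = 0.276 and 0.374) and Sdhb and Sdhd by -0.02 and -0.04. In complex III the Rieske protein Uqcrfs1 differed by 0.10 ± 0.04 (adjusted p = 0.147) and Uqcrc1 by 0.06 ± 0.02 (adjusted p = 0.161). Among the ATP synthase genes Atp5g2 and Atp5c1 both differed by -0.05 (adjusted p = 0.253 and 0.594).

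The balance in the SIRT1 cohort hung on the scaling. With array medians centred, the median of all genes moved from 0.00 to 0.06, that of the members to 0.07, and 17 members passed, all higher in KO-labelled livers, beside 1403 higher and 98 lower genes overall. WT arrays of this cohort had median intensities of 50.9 ± 1.8 and KO-labelled arrays 48.1 ± 2.0 (SD, n = 18 each). With the upper quartile of each array as a covariate 5 members passed, 4 higher and 1 lower.

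At single times 0 members passed in the SIRT1 cohort by limma, as did 0 of all genes (0%). At an unadjusted p under 0.05 the members numbered 19, 1, 11, 7, 6 and 11 of 81 from ZT0 through ZT20. The shares of all genes at these times were 12.2%, 6.15%, 8.32%, 9.48%, 5.32% and 7.89%. The members averaging higher in KO-labelled livers numbered 66, 35, 65, 59, 22 and 14 of 81 from ZT0 through ZT20, against 54.0%, 55.3%, 50.7%, 56.8%, 40.5% and 41.7% of all genes. The members' median differences were 0.10, -0.01, 0.06, 0.04, -0.05 and -0.10. Over all genes the medians were 0.02, 0.02, 0.00, 0.03, -0.03 and -0.03. The members' count at ZT4 turned to 62 with centred medians, while their medians at the other times kept their sign with the 3 other scalings. The largest difference with an unadjusted p under 0.01 was in Atp5g1, a gene for the ring subunit c of ATP synthase, at ZT20 (-0.64 ± 0.17, adjusted p = 0.313).

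Daily rhythms were tested with a 24 h cosine in each set of 18 arrays; amplitude is the fitted peak minus trough on the log2 scale. The cosine passed in 5 of 81 members in livers labelled SIRT6 KO (6.17%, against 10.6% of all genes) and in 2 in their WT (2.47%, against 10.1%). In the SIRT1 cohort it passed in 5 in KO-labelled livers (6.17%, against 23.2%) and in 12 in WT (14.8%, against 18.3%). In 1 or more of the 4 sets 18 members passed (22.2%, against 35.3% of all genes), and in all 4 sets 0 did (against 3.19%). Ndufaf4 and Ndufa2 passed in 3 sets, Ndufaf6 and Ndufa4 in 2. In both WT sets 1 member passed, Ndufa2, against 5.36% of all genes. At an unadjusted p under 0.05 the cosine gave 22 members in SIRT6 KO-labelled livers and 13 in their WT, against 24.8% and 27.1% of all genes, and 14 in SIRT1 KO-labelled livers and 30 in their WT, against 35.9% and 32.4%. The members' median amplitude was 0.19 in SIRT6 KO-labelled livers and 0.16 in their WT, against 0.20 and 0.23 over all genes. In the SIRT1 cohort it was 0.13 in KO-labelled and 0.19 in WT livers, against 0.22 and 0.21.

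The widest rhythm was in Ndufaf4, an assembly factor needed early in the building of complex I, whose promoter with an NRF1 core is printed above. In livers labelled SIRT6 KO it averaged 8.49 ± 0.28, 8.32 ± 0.17, 8.54 ± 0.38, 8.97 ± 0.17, 8.94 ± 0.17 and 8.82 ± 0.03 from ZT0 to ZT20 (SD, n = 3 each). In WT livers of that cohort it averaged 8.67 ± 0.25, 8.49 ± 0.17, 8.67 ± 0.16, 9.12 ± 0.43, 8.84 ± 0.05 and 8.56 ± 0.17. Both genotypes had their lowest mean at ZT4 and their highest at ZT12. The fitted amplitude was 0.68 ± 0.13 (SE) with a peak at ZT15.3 in KO-labelled livers (adjusted p = 0.0086) and 0.47 ± 0.16 with a peak at ZT13.1 in WT livers, which did not pass (adjusted p = 0.127). At ZT12 the 3 WT arrays read 8.63, 9.37 and 9.38, the lowest being the array that stood apart.

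Ndufaf4 in the SIRT1 cohort averaged 8.96 ± 0.11, 8.70 ± 0.09, 9.10 ± 0.18, 9.25 ± 0.11, 9.22 ± 0.12 and 8.75 ± 0.12 in KO-labelled livers, and 8.77 ± 0.32, 8.56 ± 0.22, 8.82 ± 0.08, 9.23 ± 0.01, 9.20 ± 0.10 and 9.004 ± 0.184 in WT livers. The lowest mean was again at ZT4 and the highest at ZT12. The amplitude was 0.49 ± 0.11 with a peak at ZT12.8 in KO-labelled livers (adjusted p = 0.0071) and 0.66 ± 0.11 with a peak at ZT15.1 in WT livers (adjusted p = 0.00093). These 3 calls held without any single array, and that in livers labelled SIRT6 KO failed the F test over the 6 times.

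**Figure D4:**
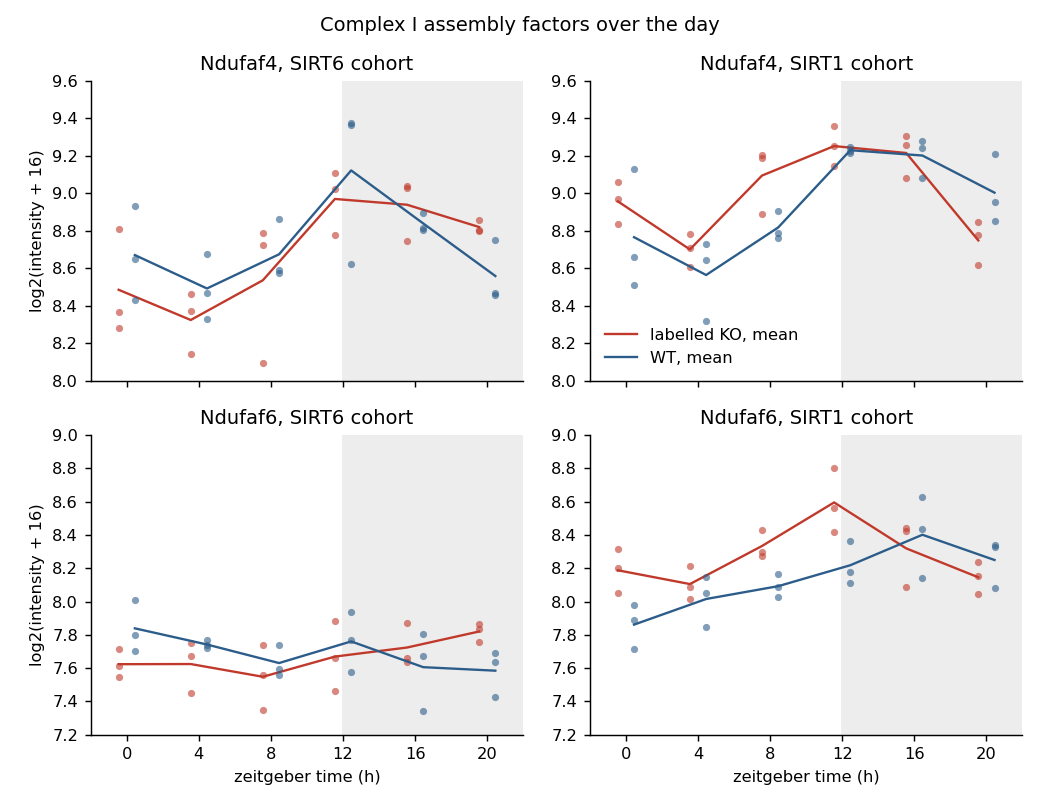
The complex I assembly factors Ndufaf4 and Ndufaf6 in each array, as log2(intensity + 16) against zeitgeber time, in the SIRT6 and SIRT1 cohorts; KO-labelled arrays are red and drawn left, WT arrays blue and right, lines join the means of 3 arrays and grey marks the dark phase. Ndufaf4 has its lowest mean at ZT4 and its highest at ZT12 in all 4 sets, while Ndufaf6 stays between 7.34 and 8.01 in the SIRT6 cohort and spans 7.71 to 8.80 in the SIRT1 cohort.

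Ndufaf6 was rhythmic in the SIRT1 cohort, with amplitudes of 0.41 ± 0.10 and a peak at ZT12.1 in KO-labelled livers and 0.44 ± 0.11 and a peak at ZT15.0 in WT livers (adjusted p = 0.017 in both). At ZT12 its 3 arrays read 8.42, 8.56 and 8.80 in KO-labelled livers, against 8.11, 8.18 and 8.37 in WT. Its amplitude in the SIRT6 cohort was 0.22 in KO-labelled and 0.13 in WT livers, and neither passed (adjusted p = 0.333 and 0.645). Of the Ndufaf6 calls in the SIRT1 cohort, that in KO-labelled livers ended with centred medians. That in WT livers ended with the F test over the 6 times, and each was lost without 1 of the 18 arrays left out in turn. Ndufa2, an accessory subunit of complex I, passed in 3 sets: with an amplitude of 0.26 and a peak at ZT22.7 in WT livers of the SIRT6 cohort (adjusted p = 0.049), 0.28 and ZT22.1 in livers labelled SIRT1 KO (adjusted p = 0.021), and 0.44 and ZT19.4 in their WT (adjusted p = 0.014). In livers labelled SIRT6 KO its amplitude was 0.21 (adjusted p = 0.242). The Ndufa2 call in livers labelled SIRT1 KO ended with the F test over the 6 times and without 1 of the 18 arrays.

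The other rhythmic members of the SIRT6 cohort had amplitudes under 0.4. All 5 calls in livers labelled SIRT6 KO, that of Ndufaf4 included, ended with an F test over the 6 times in place of the cosine. That of Atp5e also ended with the mean of all probe sets, and that of Ndufab1 after quantile normalization. In KO-labelled livers these were Atp5e, the epsilon subunit of the ATP synthase head (0.36, peak at ZT21.5, adjusted p = 0.022), Cox7a2, the widely expressed isoform of subunit 7a (0.36, ZT18.7, adjusted p = 0.0042), Ndufab1, the mitochondrial acyl carrier protein that also sits in complex I (0.33, ZT18.8, adjusted p = 0.016), and Ndufa4, first placed in complex I and now counted with complex IV (0.22, ZT19.4, adjusted p = 0.025). In WT livers it was Ndufv3 (0.37, ZT23.6, adjusted p = 0.041). The 2 calls in WT livers were lost more often: Ndufa2 no longer passed without 15 of the 18 arrays left out in turn, and Ndufv3 without 12.

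The KO-labelled livers of the SIRT1 cohort added Sdhd, an anchor of complex II (0.26, peak at ZT14.7, adjusted p = 0.0019), and Ndufa3, an accessory subunit of complex I (0.21, ZT18.6, adjusted p = 0.036, lost without 8 of 18 arrays). The call of Sdhd ended with centred medians, and that of Ndufa3 with 4 alternatives, the F test over the 6 times among them. In WT livers Atp5k, subunit e of ATP synthase, had an amplitude of 0.47 with a peak at ZT17.8 (adjusted p = 0.0048). Its mean was 9.61 ± 0.09 at ZT4 and 10.05 ± 0.13 at ZT20 there, and 9.67 ± 0.18 and 9.82 ± 0.10 at these times in KO-labelled livers. Ndufa5 of complex I followed with 0.45 and ZT16.4 (adjusted p = 0.0079). The remaining 7 called in WT livers were Ndufc1 and Ndufa8 of complex I, Uqcr11, Uqcrh and Uqcrc1 of complex III, and Ndufa4 and Cox5a of complex IV, with peaks from ZT13.3 to ZT19.5. Several of these calls are weak. Left out in turn, 10 of the 18 arrays ended that of Cox5a, 7 that of Uqcrh, 6 that of Ndufa8, 4 that of Ndufa4 and 3 that of Uqcr11, and the replicate block also ended that of Cox5a. All of the 7 but Cox5a also failed the F test over the 6 times, as did Atp5k and, as given above, Ndufaf6. The 12 became 7 without WT ZT16 replicate 1, and the 5 in KO-labelled livers became 3 without KO-labelled ZT12 replicate 3 and 8 without KO-labelled ZT16 replicate 2.

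**Figure D5:**
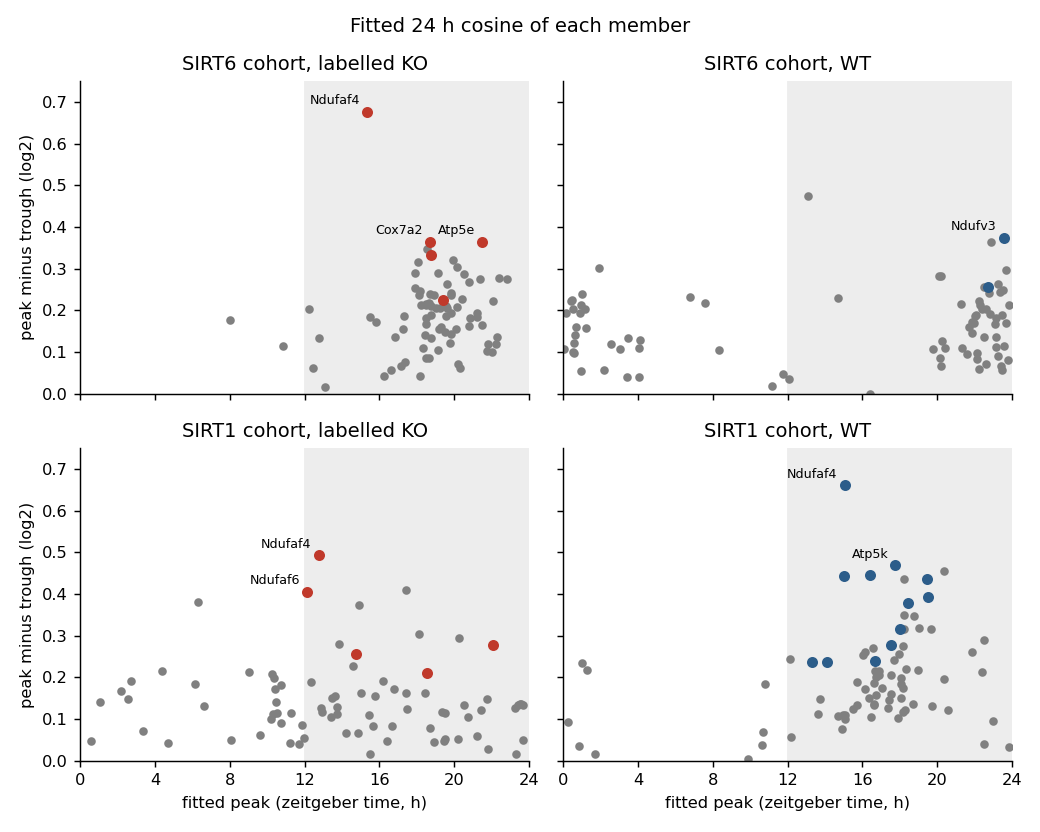
Fitted peak time (zeitgeber time, h) and amplitude (peak minus trough, log2) of each of the 81 members in the 4 sets of 18 arrays, KO-labelled on the left and WT on the right, with rhythmic members (adjusted p under 0.05) in colour and the dark phase in grey. Most peaks gather in the dark phase in livers labelled SIRT6 KO and in WT livers of the SIRT1 cohort, near lights on in WT livers of the SIRT6 cohort, and are spread out in livers labelled SIRT1 KO.

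Fitted peaks of all 81 members, called or not, gathered in the dark phase in livers labelled SIRT6 KO: 79 lay at ZT12 or later (97.5%), against 47.0% of all genes, with a mean at ZT19.0. In WT livers of that cohort the mean was ZT23.4, close to lights on. There 51 lay in the dark (63.0%, against 38.8% of all genes), and this count moved to 63 after quantile normalization, 37 with centred medians and 22 with the upper quartile as a covariate. In livers labelled SIRT1 KO 53 peaks lay in the dark (65.4%, against 42.8%), with a mean at ZT15.6, and in WT livers 72 did (88.9%, against 48.4%), with a mean at ZT17.5. With the 3 other scalings these counts were 78 to 80, 51 to 60 and 68 to 78. The members of a set share arrays and vary together within groups, as given above, so their peaks are not independent.

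By complex in the WT livers of the SIRT1 cohort, all 32 complex I subunits peaked in the dark, as did 6 of 7 of complex III, 13 of 15 of complex IV, 13 of 16 of ATP synthase, 3 of 4 of complex II and 5 of 7 assembly factors. In livers labelled SIRT1 KO the counts were 25 of 32, 3 of 7, 9 of 15, 12 of 16, 2 of 4 and 2 of 7 in the same order. All members of the SIRT6 cohort but 1 of complex I and 1 assembly factor peaked in the dark in KO-labelled livers.

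The difference in rhythm between genotypes was tested directly, and 0 of 81 members passed in either cohort by limma. Over all genes 0.00751% passed in the SIRT6 cohort, which is 1 gene, and 0% in the SIRT1 cohort. At an unadjusted p under 0.05 there were 3 members in each cohort (3.70%), against 8.25% and 7.25% of all genes. The smallest adjusted p was 0.511 in the SIRT6 cohort, for Uqcrfs1, with an amplitude of 0.29 and a peak at ZT17.9 in KO-labelled and 0.20 and ZT0.5 in WT livers. In the SIRT1 cohort it was 0.673, for Atp5g1, with 0.28 and ZT13.9 in KO-labelled and 0.46 and ZT20.4 in WT livers. The members called rhythmic in 1 genotype alone are therefore not shown to differ between genotypes.

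Tissue-specific isoforms were read beside their common counterparts; levels of different probe sets are not compared. Cox4i2, the isoform known from lung and low oxygen, read 7.64 ± 0.16 in SIRT6 KO-labelled and 7.61 ± 0.17 in WT livers (n = 18 each). Cox6a2, the heart and muscle isoform of subunit 6a, read 6.49 ± 0.15 and 6.52 ± 0.14 there, and in the SIRT1 cohort 6.38 ± 0.17 in KO-labelled and 6.52 ± 0.11 in WT livers (-0.13 ± 0.05, adjusted p = 0.151). Its liver counterpart Cox6a1 differed by -0.02 in the SIRT6 and 0.05 in the SIRT1 cohort. Cox7a1, the heart and muscle isoform of subunit 7a, read 6.87 ± 0.24 in SIRT6 KO-labelled and 7.13 ± 0.38 in WT livers (-0.25 ± 0.10, adjusted p = 0.161), and 7.66 ± 0.28 in SIRT1 KO-labelled and 7.46 ± 0.40 in WT livers (0.19 ± 0.10, adjusted p = 0.293). Cox7a2 and the supercomplex factor Cox7a2l differed by -0.07 and 0.07 in the SIRT6 cohort. Cox8b, the muscle isoform of subunit 8, stayed below the filter at 4.87 ± 0.19 in SIRT6 KO-labelled and 4.97 ± 0.35 in WT livers, and Cox8a differed by -0.03. Of 6 striated muscle markers, Ckm, Actn2 and Myh7 were below the filter, while Tnnt3, Mb and Acta1 were above it. These last differed by 0.05, -0.07 and -0.05 in the SIRT6 cohort and by 0.00, -0.02 and 0.03 in the SIRT1 cohort. None of them passed.

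The genes of ATP synthase subunit c, which encode the same mature protein, differed in the SIRT6 cohort by 0.04 (Atp5g1), -0.06 (Atp5g2) and -0.04 (Atp5g3), and in the SIRT1 cohort by -0.05, -0.05 and -0.01, none of them past the threshold. Ndufa4 read 10.82 ± 0.10 in SIRT6 KO-labelled and 10.90 ± 0.11 in WT livers (adjusted p = 0.114), and 11.11 ± 0.12 in SIRT1 KO-labelled and 11.05 ± 0.15 in WT livers (adjusted p = 0.476). Its hypoxia-inducible relative Ndufa4l2 was below the filter. Probe sets of near-identical members and their pseudogenes may read each other, and 9 of the 89 members had a second probe set. The other probe set differed in sign in the SIRT6 cohort for Atp5d, Atp5h, Cox5b and Ndufa11, none of which passed.

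The effects of both knockout labels were also set against each other, each KO against its own WT. Of 81 members 5 differed (6.17%), against 5.76% of all genes, and 13 did at an unadjusted p under 0.05, against 19.6%. Cox6b2, at 1.07 in the SIRT6 and -0.05 in the SIRT1 cohort, differed by 1.12 ± 0.12 (SE). Ndufc2, at 0.11 and -0.04, differed by 0.15 ± 0.04 (limma adjusted p = 0.0070). Atp5l, at -0.25 and 0.06, differed by -0.31 ± 0.09 (adjusted p = 0.020). Cox5a, at -0.11 and 0.09, differed by -0.20 ± 0.05 (adjusted p = 0.012), and Cox4i1, at -0.11 and 0.05, by -0.16 ± 0.05 (adjusted p = 0.046). Cohort and strain go together in this contrast and cannot be told apart from the gene deleted.

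Further genes of oxidative phosphorylation were read from lists of assembly factors, coenzyme Q synthesis, the citric acid cycle and regulators. Their counts stand beside 3.39% of all genes higher and 3.22% lower in the SIRT6 cohort and 2.27% changed in the SIRT1 cohort. Of the SIRT6 cohort's lists, 2 of 30 assembly factors of complexes II to V were higher in KO-labelled livers, Cox10, which makes the heme A precursor of complex IV (0.18 ± 0.04, limma adjusted p = 0.0055), and Surf1 (0.13 ± 0.04, adjusted p = 0.028). Another 2 were lower, Cox19, a copper handling factor (-0.37 ± 0.05, adjusted p = 8.2e-06), and Cox16 (-0.16 ± 0.03, adjusted p = 0.0046). Of 17 genes of electron carriers and coenzyme Q synthesis Coq6 was higher (0.14 ± 0.04, adjusted p = 0.016) and Coq7 lower (-0.23 ± 0.06, adjusted p = 0.029), enzymes that both add ring oxygens to coenzyme Q precursors. The list medians were -0.02 and -0.01. None of 12 citric acid cycle genes, 14 regulators or 7 further complex I assembly genes passed (medians 0.01, -0.03 and -0.03).

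None of these lists held a gene past the threshold in the SIRT1 cohort, with medians of 0.06 for the 30 assembly factors and 0.06 for the 14 regulators. Ppargc1a differed by -0.24 ± 0.16 (adjusted p = 0.424), and by -0.12 ± 0.09 in the SIRT6 cohort (adjusted p = 0.574). Esrra, the nuclear receptor ERRalpha that works with it on respiratory genes, was rhythmic in the SIRT1 cohort, with an amplitude of 0.48 and a peak at ZT12.8 in KO-labelled livers (adjusted p = 4.6e-04) and 0.39 and ZT14.4 in WT livers (adjusted p = 0.0051). In the SIRT6 cohort its amplitude was 0.29 in KO-labelled and 0.25 in WT livers (adjusted p = 0.062 and 0.181). Of the 14 regulators 5 were rhythmic in SIRT1 KO-labelled livers and 5 in their WT, against 23.2% and 18.3% of all genes. Among them Ppargc1b, Gabpb1 and Yy1 passed in both, with peaks in the light. These lay at ZT8.5, ZT3.5 and ZT7.3 in KO-labelled and at ZT9.7, ZT1.8 and ZT9.8 in WT livers. In the SIRT6 cohort 1 regulator passed in each genotype, against 10.6% and 10.1% of all genes.

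Markers of other liver cells stood as follows. All 7 measured Kupffer cell markers had the higher mean in SIRT6 KO-labelled livers (median 0.17, summed intensity 1905 to 11292, against 1537 to 9271 in WT), and all 7 the lower mean in SIRT1 KO-labelled livers (median -0.14, 1086 to 3750 against 1626 to 4264 in WT). None of them passed in either cohort, and their part in the results above was not tested. In bulk liver fewer cells of a type and less RNA per cell cannot be told apart. Nor did any of the tested lymphocyte (3 of 6), stellate (5 of 5), endothelial (4 of 4) or bile duct (3 of 4) markers pass in either cohort. Of the 7 hepatocyte markers 1 passed, Serpina1a in the SIRT1 cohort at -0.12 (adjusted p = 0.045).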

How the data were processed

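Total RNA of 72 liver samples was hybridised to single-colour Affymetrix arrays. Per the submitters' processing notes, the authors' software was Affymetrix Expression Console 1.1.1 with PLIER 2.0. How it was set, and on which build, is not stated there. The table the authors deposited gives linear intensity per probe set. Its columns were matched to samples by name, with none left over (0), and groups come from the labels. A probe set was named only where it lists 1 gene. 10 probe sets list several genes including a symbol of the rule, and of their 12 symbols 3 are members by another probe set and the others are not analysed here.

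Values were taken as log2(intensity + 16), and of 22180 genes, each by its probe set of highest mean, the lowest 40% were left out, so that 13308 were tested. The 36 arrays of a cohort entered a limma fit (version 3.58.1, R 4.3.3) of 12 group means, with empirical Bayes moderation and an intensity trend. KO minus WT was tested as the mean over the 6 times, and time by time with a joint Benjamini-Hochberg adjustment of every gene at every time. Rhythm was tested per set of 18 arrays by a moderated F of a 24 h cosine, the difference in rhythm by genotype by cosine terms over 36 arrays, and the difference between the KO effects over 72 arrays. All p-values were adjusted over all genes tested, with a threshold of 0.05. The steps were tested on simulated data. The noise there was drawn independently for each gene, so the variation that genes share within groups, given above, was not part of that check.

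The members, gene lists and tests were chosen with earlier results of these data known. Named are all members past the threshold (for rhythm the 5 of largest amplitude in each set), in each complex the 2 of smallest p in each cohort, isoform families and complex II. Ndufb5, further rhythmic members, neighbouring genes, Ppargc1a, Ppargc1b, Esrra, Gabpb1, Yy1, Serpina1a and the muscle markers were added for the counts they belong to. The main fits did not pair arrays by replicate number. Correlations of the deviations of same-numbered arrays ran from -0.36 to 0.74 in the SIRT6 and from -0.28 to 0.37 in the SIRT1 cohort. They were over 0.1 in 11 and 6 of 18 pairs, and positive in every SIRT6 pair at ZT12, ZT16 and ZT20. Whether same-numbered arrays of the SIRT6 cohort shared their handling was not tested. Alternatives were quantile normalization, centred array medians, pseudocounts of 1 and 64, no filter or the lowest 60% left out, array weights, the replicate number as a block, a fit with no trend, the mean of all probe sets, the array upper quartile as a covariate, an F test over the 6 times, for the rhythm difference a correction over genes rhythmic in either genotype, and each array left out in turn.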

Additional observations from a re-analysis of the deposited data

Results flagged for a closer look

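The effect of the knockout label differed between the cohorts, by a test of the difference itself, in 5 members. Cox6b2 had a SIRT6 minus SIRT1 difference of 1.12, with effects of 1.07 in the SIRT6 and -0.05 in the SIRT1 cohort, and 18 of 18 SIRT6 KO-labelled arrays above the WT mean of their time. Its readings in the SIRT1 cohort lay near the filter limit, as given above. Ndufc2 had a difference of 0.151 (16 of 18 above the WT mean in the SIRT6 and 15 of 18 below it in the SIRT1 cohort). Cox5a had -0.195 (15 of 18 below in the SIRT6 and 13 of 18 above in the SIRT1 cohort) and Atp5l -0.313 (16 of 18 below and 11 of 18 above). Cox4i1 had -0.158 (16 of 18 below and 11 of 18 above), and this call ended without 43 of the 72 arrays left out in turn, with the replicate block, with no trend, with no filter and after quantile normalization. That of Ndufc2 ended with centred medians, and the calls of Cox6b2, Cox5a and Atp5l held in all of these. The strain differs between the cohorts with the gene deleted, and the part of either was not tested.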

How the results depend on the processing

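Of the counts of members recomputed with all arrays, 104 stayed within 1.5 times the value reported and 23 did not. Counts of 0 that stayed 0 are among the 104 and say little of how stable the other counts are. The cause of the moves was not tested. After quantile normalization 1 member was rhythmic in WT livers of the SIRT6 cohort and 10 in livers labelled SIRT1 KO. With centred medians 17 members changed in the SIRT1 cohort, 3 were rhythmic in livers labelled SIRT1 KO and 20 differed in KO effect between cohorts; 297 genes were then higher and 524 lower in the SIRT6 cohort, against 451 and 429, and 1403 and 98 in the SIRT1 cohort, against 141 and 161. With the upper quartile covariate 8 members changed in the SIRT6 and 5 in the SIRT1 cohort and 9 differed in effect, with 704 genes higher and 960 lower in the SIRT6 and 829 and 492 in the SIRT1 cohort. With array weights 15 members changed in the SIRT6 and 9 in the SIRT1 cohort. Over all 13308 genes, 1215 were then higher and 1408 lower in the SIRT6 and 575 and 469 in the SIRT1 cohort. With these weights 21 and 1 tests of members at single times passed. In SIRT6 WT, SIRT1 KO-labelled and SIRT1 WT livers 8, 8 and 21 members were rhythmic, and 15 differed in effect. Counts over all genes are not given here for these further tests. Without the filter, 0 members were rhythmic in WT livers of the SIRT6 cohort; without the trend it was 1. The replicate block also gave 0 there, leaving out the 2 calls reported, and ended the rhythm call of Cox5a in WT livers of the SIRT1 cohort, but it moved no other count by over 1.5 times. The F test over the 6 times gave 0 and 0 rhythmic members in KO-labelled and WT livers of the SIRT6 cohort and 3 and 4 in those of the SIRT1 cohort. With 1 array left out the members changed numbered 3 to 9 in the SIRT6 and 0 to 1 in the SIRT1 cohort (the 1 being Cox5a, without KO-labelled ZT0 replicate 2), tests passing at single times 2 to 5 (5 without SIRT6 KO-labelled ZT12 replicate 1, all in Cox6b2) and 0 to 0, rhythmic members 4 to 6 in SIRT6 KO-labelled, 0 to 2 in their WT, 3 to 8 in SIRT1 KO-labelled and 7 to 16 in their WT livers, members differing in rhythm 0 to 0 in both cohorts, and members differing in effect 4 to 9 (9 without SIRT6 WT ZT12 replicate 1, and 8 without SIRT6 KO-labelled ZT16 replicate 2, SIRT1 KO-labelled ZT16 replicate 3 or SIRT1 WT ZT20 replicate 2). The members' median change stayed between -0.04 and -0.01 in the SIRT6 and between 0.00 and 0.07 in the SIRT1 cohort over all 47 alternatives of each. Cox6b2 and Atp5l passed in the SIRT6 cohort under each of 11 alternatives and without each of 36 arrays.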
